A study of Mus musculus with 6 samples.

Results

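The transcripts described here are those of the respiratory chain, the 5 protein complexes of the inner mitochondrial membrane that carry out oxidative phosphorylation. Members were the protein-coding rows of the deposited gene count table whose mouse symbols match the names of the subunits: the Nduf a, b, c, s and v genes, Sdha to Sdhd, the Uqcr genes, Cox4 to Cox8 followed by a, b or c, the Atp5 genes, and mt-Nd, mt-Co, mt-Cytb and mt-Atp. This rule took 95 of 45513 identifiers, 82 encoded in the nucleus and 13 in the mitochondrial genome, and used no measured value. The symbol pattern leaves out some subunits, among them Cox4i1 and Cyc1, which are given further on as neighbours. The data were RNA-seq counts from keratinocytes isolated from the skin of 3 Lama3 knockout mice (Lama3flox/flox/K14-CreERT, with 2 floxed alleles) and 3 control mice (Lama3wt/flox/K14-CreERT, with 1 floxed allele). All 6 mice were C57BL/6 and, per the labels, were given tamoxifen chow at 400 mg/kg. The design text gives both groups the same keratin 14-driven, tamoxifen-dependent Cre. The genotype label of the controls reads wild type, and ages are not given in the sources used here. The Cre acts in basal keratinocytes, and deletion removes exons 50 to 53 of Lama3, the gene for the alpha chain of laminin 332.

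Complexes I and II take electrons from NADH and from succinate and pass them to ubiquinone, complex III hands them to cytochrome c, and complex IV hands them to oxygen. Complexes I, III and IV pump protons, and complex V, the ATP synthase, lets the protons flow back to make ATP. The mitochondrial genome encodes hydrophobic core subunits of complexes I, III, IV and V, while complex II is wholly nuclear, so that assembly of the other complexes draws on both genomes. In the epidermis, keratinocytes combine this pathway with glycolysis, and mitochondria are lost as cells cornify.

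Total counts lay between 20126395 and 28473479 per library, and 15513 genes passed the filter on low counts. Lama3 (ENSMUSG00000024421) had 97.3, 98.9 and 79.2 CPM (counts scaled to library size with edgeR's TMM factors) in knockout libraries 1, 2 and 3, against 141, 142 and 114 CPM in control libraries 1, 2 and 3. The groups did not overlap, with a log2 fold change of -0.53 ± 0.14 (standard error, SE; adjusted p = 0.0215, edgeR quasi-likelihood). A count over the whole gene checks the deletion only in part, since most exons lie outside it. That call was lost without knockout 1, without control 1 and without control 2. Xist and Ddx3y counts assigned knockouts 1 and 2 and control 1 to females and knockout 3 and controls 2 and 3 to males. In keratinocytes as a bulk sample, fewer cells of a type and less RNA per cell cannot be told apart.

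Respiratory chain transcripts were lower in the knockout libraries, from both genomes. Of the 90 members tested, 73 fell and 0 rose, taking adjusted p values below 0.05 as calls. In edgeR 0 were higher at an unadjusted p under 0.05 as well, and DESeq2 and limma-voom also called 0 higher. Among all 15513 genes tested, 18.8% were called lower and 17.4% higher, and the median log2 fold change was -0.02. With upper-quartile scaling factors 25.7% of all genes were called lower and 11.3% higher, the median of all genes lay at -0.17, and 67 nuclear and 12 mitochondrial members were called lower. Of the 77 nuclear-encoded members tested, 63 fell (81.8%); their 77 log2 fold changes had a median of -0.72, and 15 of these fell by at least 2-fold. Of the 13 mitochondrially encoded members, 10 fell (76.9%), with a median of -1.07, and 8 of these fell by at least 2-fold. All 3 knockout libraries lay below all 3 controls for 65 nuclear and 10 mitochondrial members, a pattern found in 26.5% of all genes tested. The 5 members not tested were tissue isoforms of complex IV that stayed under 0.5 CPM in every library (Cox6a2, Cox7a1, Cox7b2, Cox8b and Cox8c).

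**Figure D1:**
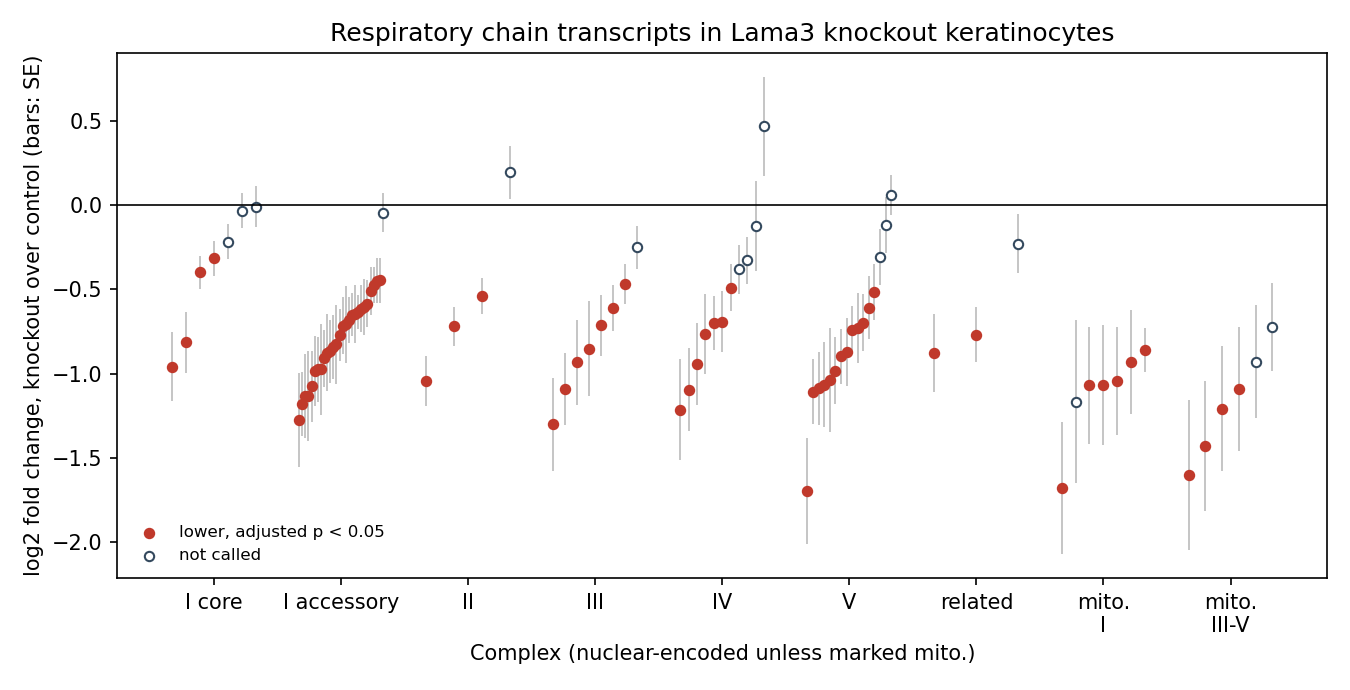
Log2 fold change, knockout over control, of the 90 members tested (points, with the SE as bars), grouped on the horizontal axis by complex and genome. Filled points were called lower at an adjusted p under 0.05 and open points were not called; 73 points are filled, and 87 of 90 lie below 0.

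The counts of calls changed when single libraries were left out and when length and GC content entered the fit. Among nuclear members, 34 were called lower without knockout 1, 40 without knockout 2 and 35 without control 3, against 63 with all 6 libraries. Calls over all genes moved the same way: 10.8% were lower without knockout 1, 11% without knockout 2 and 10.9% without control 3, against 18.8% with all libraries. Among mitochondrial members, 1 was called without knockout 1, 2 without knockout 2, 2 without control 2 and 1 without control 3, against 13 without control 1 and 10 with all libraries. Of all genes, 17.4% were called lower without knockout 3, 12.7% without control 1 and 16.9% without control 2. A fit with offsets for the exon length and GC content of each gene called 42 nuclear and 0 mitochondrial members lower, and it called 15.3% of all genes lower. A fit with the length and GC content of the principal transcript in their place called 31 nuclear and 0 mitochondrial members lower, against 14.7% of all genes. At an unadjusted p under 0.05, 2 mitochondrial members were lower in each of these fits. In both, 10 of 13 mitochondrial members kept a negative value, with medians of -0.51 and -0.48. Of the 73 members called lower, 27 were called in all 18 alternatives tried, and these are marked below as called throughout.

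Complex I, the NADH dehydrogenase, had 35 nuclear members, all tested, of which 31 fell and 4 were not called. The 28 accessory subunits, which surround and stabilise the enzyme, held 27 of these calls, with a median log2 fold change of -0.74. The 7 nuclear core subunits, which carry the flavin and the iron-sulfur clusters, held 4 calls, with a median of -0.32. The difference between core and accessory subunits was not tested. Without knockout 1 the complex held 19 calls, without control 3 it held 17, and with the exon and principal transcript offsets it held 20 and 15.

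Among the accessory subunits, Ndufs4 (ENSMUSG00000021764, GRCm38 chr13:114287795-114388258), which helps to assemble the NADH-oxidising module, had 36.5, 36.3 and 49.3 CPM in the knockouts, against 93.8, 72.6 and 110.5 CPM in the controls. The lowest control exceeded the highest knockout. Its log2 fold change was -1.18 ± 0.19 (adjusted p = 0.00426), and it was called throughout. Ndufv3, a small subunit beside the flavin site, had 42.5, 40.7 and 44.1 CPM in the knockouts, against 65.6, 69.6 and 62.5 CPM in the controls, with a log2 fold change of -0.63 ± 0.10 (adjusted p = 0.00412). Its libraries varied little within each group and the groups stood apart, and it too was called throughout. Ndufb9, a subunit of the membrane arm and one of the 2 nuclear complex I transcripts with the highest level per length, had 83.01, 67.9 and 117 CPM in the knockouts and 212, 142 and 234 CPM in the controls. Control 2 was the lowest control and still exceeded knockout 3, the highest knockout, and the log2 fold change was -1.13 ± 0.25 (adjusted p = 0.0121). Ndufb4, also of the membrane arm, had the lowest log2 fold change of the nuclear members of the complex, -1.28 ± 0.28 (adjusted p = 0.0124), on 13.5 ± 4.11 CPM in the knockouts and 32.8 ± 9.19 CPM in the controls (SD, n = 3 each). Both were called throughout, as were Ndufa2 (-0.91) and Ndufb5 (-0.65), 2 further accessory subunits. Ndufa7, the other of the 2 with the highest level per length, had a log2 fold change of -1.13 ± 0.27 and lost its call without knockout 1 or without control 3.

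Complex I members that did not pass the test included Ndufa10 (-0.04 ± 0.11, adjusted p = 0.778), Ndufs1 and Ndufv1. Ndufs1, the largest iron-sulfur subunit, had 107, 95.7 and 97.4 CPM in the knockouts, against 96.9, 109 and 101 CPM in the controls. Ndufv1, which binds NADH and the flavin, had 105, 86.9 and 87.4 CPM in the knockouts, against 89.2, 104 and 88.2 CPM in the controls. For both, the groups overlapped, and the log2 fold changes were -0.03 ± 0.11 and -0.01 ± 0.12 (adjusted p = 0.825 and 0.956). Ndufv2, the partner of Ndufv1 in the flavoprotein module, instead had 67.1, 65.03 and 94.1 CPM in the knockouts, against 163, 111 and 166 CPM in the controls. Here all controls exceeded all knockouts, with a log2 fold change of -0.96 ± 0.20 (adjusted p = 0.0109), called throughout.

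Complex II, the succinate dehydrogenase, also a tricarboxylic acid cycle enzyme, showed 3 subunits that fell and 1 that did not pass the test. Sdha, the flavoprotein that oxidises succinate (ENSMUSG00000021577, chr13:74322254-74350280), had 149, 134 and 101 CPM in the knockouts, against 104, 125 and 107 CPM in the controls. The groups overlapped, knockout 3 being the lowest of the 6 libraries, and the log2 fold change was 0.19 ± 0.16 (adjusted p = 0.366). Sdhb, the iron-sulfur subunit (ENSMUSG00000009863, chr4:140961203-140979193), had 61.9, 54.1 and 55.8 CPM in the knockouts, against 84.3, 102 and 97.1 CPM in the controls. Its groups stood apart, with a log2 fold change of -0.72 ± 0.12 (adjusted p = 0.00427). Of the membrane anchors that hold the ubiquinone site, Sdhc had 76.8, 65.8 and 74.1 CPM in the knockouts, against 109, 105 and 100.4 CPM in the controls. Sdhd (ENSMUSG00000000171, chr9:50596357-50603812) had 58.9, 50.7 and 69.6 CPM in the knockouts, against 128, 107 and 134 CPM in the controls. Neither anchor overlapped between groups, with log2 fold changes of -0.54 ± 0.11 for Sdhc and -1.04 ± 0.15 for Sdhd (adjusted p = 0.00818 and 0.00302). These 3 calls were made in each of the 18 alternatives, including both fits with length and GC offsets. In the fit with principal transcript offsets the log2 fold changes were -0.51 for Sdhb, -0.59 for Sdhc and -0.76 for Sdhd, beside 0.17 for Sdha (adjusted p = 0.393).

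**Figure D2:**
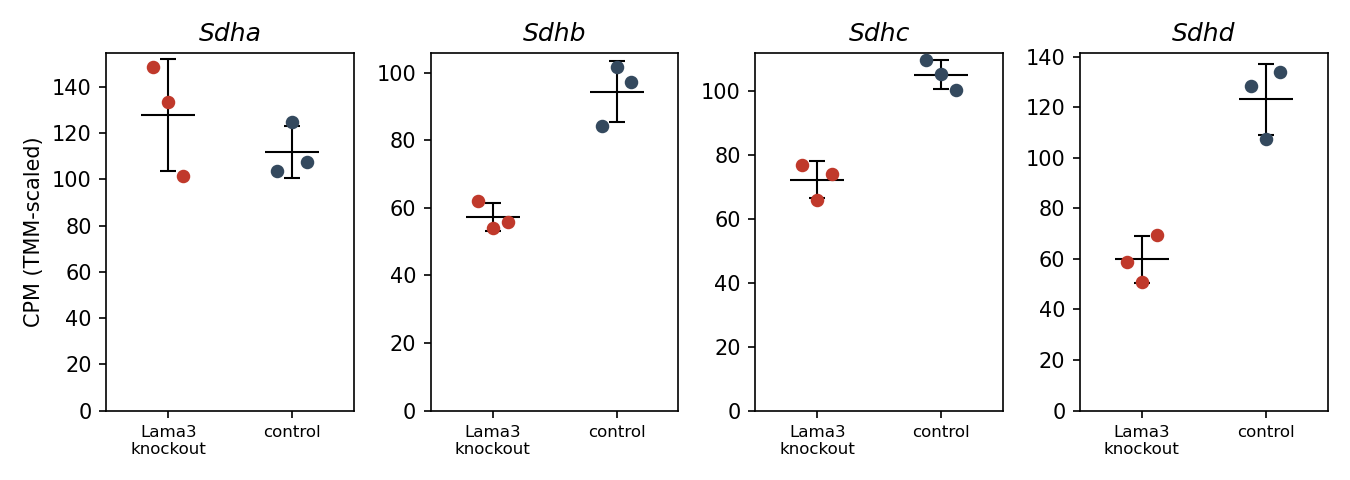
CPM of the 4 subunits of complex II in 3 Lama3 knockout libraries and 3 control libraries (points), with the mean and SD as bars. The knockout points of Sdhb, Sdhc and Sdhd lie below all control points, and those of Sdha overlap with the controls.

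Complex III had 8 nuclear members, of which 7 fell. Its 5 small accessory subunits all fell, with a median log2 fold change of -0.93. Uqcrh, the hinge protein that holds cytochrome c1 (ENSMUSG00000063882, chr4:116066965-116075071), had 162, 149 and 245 CPM in the knockouts, against 496, 309 and 566 CPM in the controls. Even control 2, far below the other two controls, exceeded every knockout. The log2 fold change was -1.30 ± 0.28 (adjusted p = 0.0108), called throughout, as was Uqcr11 (-1.09 ± 0.21, adjusted p = 0.00838). Of the core proteins, Uqcrc2 had 160.1, 143 and 184 CPM in the knockouts and 257, 228 and 259 CPM in the controls, without overlap, and was called throughout at -0.61 ± 0.13 (adjusted p = 0.0123). Its partner Uqcrc1 had 208, 172 and 183 CPM in the knockouts and 234, 233 and 204 CPM in the controls. Knockout 1 exceeded control 3, and the log2 fold change of -0.25 ± 0.13 did not pass the test (adjusted p = 0.154). Uqcrfs1, the Rieske iron-sulfur protein that transfers electrons, fell by 0.47 on the log2 scale (adjusted p = 0.0182). That call was lost with both sets of offsets and without knockout 1, knockout 2, control 1 or control 3. The complex held 3 calls in each of these 6 settings.

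Complex IV, the cytochrome c oxidase, had 16 nuclear members, of which 11 were tested and 7 fell. Those that fell were 7 of the 10 ubiquitous subunits (Cox5b, Cox6b1, Cox6c, Cox7a2, Cox7b, Cox7c and Cox8a), and Cox5a, Cox6a1 and Ndufa4 did not pass the test. Cox7b (ENSMUSG00000031231, chrX:106015700-106022450), a single-pass membrane subunit, had 119, 93.8 and 194 CPM in the knockouts, against 327, 227 and 388 CPM in the controls. Knockout 2 was the lowest and control 3 the highest, and the groups did not overlap, with a log2 fold change of -1.21 ± 0.30 (adjusted p = 0.0183). Cox7a2 had 96.5, 76.6 and 134 CPM in the knockouts, against 249, 159.8 and 249 CPM in the controls, again without overlap, at -1.10 ± 0.25 (adjusted p = 0.0137). Ndufa4, once assigned to complex I and now counted as a subunit of complex IV, had 181, 134 and 205 CPM in the knockouts and 220.3, 118 and 228 CPM in the controls. Control 2 was the lowest of all 6 libraries for this gene, and the log2 fold change was -0.12 ± 0.27 (adjusted p = 0.738).

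No nuclear complex IV member under the symbol rule was called in every alternative. Cox7a2 was lost without knockout 1, Cox7b without knockout 1, without control 3 and with principal transcript offsets, and Cox5b (-0.70 ± 0.16) with principal transcript offsets. Cox6c (-0.94 ± 0.24), Cox6b1 (-0.77 ± 0.24), Cox7c (-0.69 ± 0.18) and Cox8a (-0.49 ± 0.14) lost their calls in more settings, among them the leaving out of knockout 1 and of control 3. The complex held 1 call without knockout 1, 3 without knockout 2, 4 without control 1 and 2 without control 3. It held 4 calls with exon offsets and 1 with principal transcript offsets.

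Isoforms of complex IV subunits known from muscle or testis contributed few reads. Cox6b2, the testis form of Cox6b1, was the 1 isoform tested, with 3.298, 2.76 and 5.12 CPM in the knockouts and 2.89, 2.24 and 2.95 CPM in the controls. Its level alone did not pass the test, with a log2 fold change of 0.47 ± 0.29 (adjusted p = 0.24). Per transcript length it made up 2.55%, 2.68% and 2.77% of the Cox6b1 and Cox6b2 sum in the knockouts, against 1.15%, 1.24% and 1.11% in the controls. The shares did not overlap, and Cox6b1 itself had 141, 112 and 200.4 CPM in the knockouts and 278, 199.5 and 293 CPM in the controls, with knockout 3 just above control 2. With principal transcript offsets Cox6b2 was the 1 member called higher, at 0.85 (adjusted p = 0.0342).

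Complex V, the ATP synthase, had 16 nuclear members, of which 13 fell. The 8 subunits of the peripheral stalk and membrane sector all fell (median log2 fold change -1.01), as did the 3 genes for the c ring of the rotor (median -0.70). Of the 5 subunits of the soluble F1 head and its central stalk, 2 fell. Atp5a1 and Atp5b, the alpha and beta subunits that form the catalytic head, had log2 fold changes of -0.12 ± 0.17 and -0.31 ± 0.16 and did not pass the test (adjusted p = 0.599 and 0.171). Atp5b, the nuclear member with the highest CPM, had 799.6, 654 and 721 CPM in the knockouts, against 855, 968 and 869 CPM in the controls. Its groups did not overlap by a narrow margin, whereas those of Atp5a1 did overlap, at 675, 549.7 and 553 CPM in the knockouts and 588, 711 and 631 CPM in the controls.

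The 3 subunits of the central stalk, which rotates within that head, are described one by one. Atp5c1, the gamma subunit, had 199.5, 184 and 228 CPM in the knockouts, against 425, 315 and 398 CPM in the controls, and its log2 fold change was -0.90 ± 0.16 (adjusted p = 0.00638). Atp5e, the epsilon subunit (ENSMUSG00000016252, chr2:174461072-174464105), had 66.6, 53.3 and 106 CPM in the knockouts, against 261, 160.4 and 312 CPM in the controls. Its log2 fold change of -1.70 ± 0.32 was the lowest of all nuclear members (adjusted p = 0.00732), and like Atp5c1 it did not overlap between groups and was called throughout. Atp5d, the delta subunit, had 176, 147 and 168 CPM in the knockouts and 149, 168 and 154 CPM in the controls. The groups overlapped, and its log2 fold change was 0.06 ± 0.12 (adjusted p = 0.706).

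In the stalk and membrane sector, Atp5l, the subunit g that takes part in dimer formation, had 69.5, 60.001 and 81.9 CPM in the knockouts, against 172, 113 and 171 CPM in the controls. All controls exceeded all knockouts, with a log2 fold change of -1.11 ± 0.19 (adjusted p = 0.00559), and Atp5h and Atp5j2 were likewise called throughout (-0.98 and -1.09). The 3 c ring genes encode the same mature protein behind different import peptides. Their log2 fold changes were -0.74 ± 0.14 for Atp5g1, -0.52 ± 0.17 for Atp5g2 and -0.70 ± 0.17 for Atp5g3, and only Atp5g1 was called throughout the alternatives tried. Atp5g2 lost its call with principal transcript offsets and without each library except control 2, and Atp5g3 with these offsets and without control 3. Per length, Atp5g3 gave 77.1%, 72.5% and 78.3% of the 3 transcripts in the knockouts and 74.9%, 78.0% and 78.2% in the controls, which overlap. The complex held 7 calls without knockout 1, 8 without control 3 and 8 with principal transcript offsets.

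The remaining 3 nuclear members bear subunit-like names without being constitutive subunits. Cox7a2l had 205, 184 and 199 CPM in the knockouts, against 403, 276 and 324 CPM in the controls, without overlap. It was called throughout at -0.77 ± 0.16 (adjusted p = 0.0106). Atp5s, at a low level, fell (-0.88 ± 0.23, adjusted p = 0.0216), and that call was lost with both sets of offsets and without any one of the 3 knockouts. Ndufa4l2, a relative of Ndufa4 known as a hypoxia-induced gene, had 121, 118 and 171 CPM in the knockouts and 159, 181 and 140.4 CPM in the controls. These overlapped, and its log2 fold change of -0.23 ± 0.17 did not pass the test (adjusted p = 0.328).

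The 13 mitochondrially encoded subunits gave most of the respiratory chain counts. The gene mt-Co1, the catalytic subunit of complex IV, had 13923, 9824 and 16883 CPM in the knockouts, against 20987, 30259.8 and 42719 CPM in the controls. Every control exceeded every knockout, and control 3 stood well above the other two controls. The log2 fold change was -1.21 ± 0.37 (adjusted p = 0.0363). The gene mt-Cytb, the cytochrome b of complex III, had 5623, 3942 and 7470.4 CPM in the knockouts and 8152, 11192 and 16943 CPM in the controls, also without overlap, at -1.09 ± 0.37 (adjusted p = 0.0491). The complex I subunits with more than 1000 CPM, mt-Nd1, mt-Nd2, mt-Nd4 and mt-Nd5, had log2 fold changes of -0.93 ± 0.31, -1.04 ± 0.32, -1.07 ± 0.36 and -1.07 ± 0.35. The adjusted p of these 4 lay between 0.0361 and 0.0473, just inside the threshold.

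Among the controls, control 1 was the lowest and control 3 the highest for all 13 mitochondrial genes, and among the knockouts, knockout 3 was the highest for 11. By Xist and Ddx3y counts, control 1 was the only female control and knockout 3 the only male knockout. The part of sex in this order was not tested. The gene mt-Nd6, the 1 subunit encoded on the light strand, had 41.8, 39.8 and 39.1 CPM in the knockouts, against 64.3, 68.8 and 85.6 CPM in the controls. Its spread within the knockouts was the smallest of the 13 relative to its mean, and its log2 fold change of -0.86 ± 0.13 had the smallest adjusted p of the 13, 0.00371. It passed the test without any one library, but its log2 fold change was 0.05 with exon offsets and 0.08 with principal transcript offsets. The gene mt-Nd3, also of complex I, had 1.395, 1.43 and 3.34 CPM in the knockouts and 4.87, 6.34 and 8.61 CPM in the controls (-1.68 ± 0.39, adjusted p = 0.0152). Of the other complex IV subunits, mt-Co2 had 16.7, 16.02 and 34.6 CPM in the knockouts and 38.03, 57.9 and 85.5 CPM in the controls (-1.43 ± 0.39, adjusted p = 0.0265), and mt-Co3 had 14.1, 16.2 and 39.6 CPM in the knockouts and 48.1, 61.9 and 102 CPM in the controls (-1.60 ± 0.44, adjusted p = 0.0289). In these 3 genes knockout 3 was the highest knockout and lay below every control. The 3 that did not pass the test were mt-Atp6 (-0.72 ± 0.26) and mt-Atp8 (-0.93 ± 0.34), subunits of complex V, and mt-Nd4l (-1.17 ± 0.49). In each of these 3 the highest knockout exceeded control 1. With sex as a covariate 5 of the 13 were called lower (mt-Nd2, mt-Nd3, mt-Nd6, mt-Co2 and mt-Co3).

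**Figure D3:**
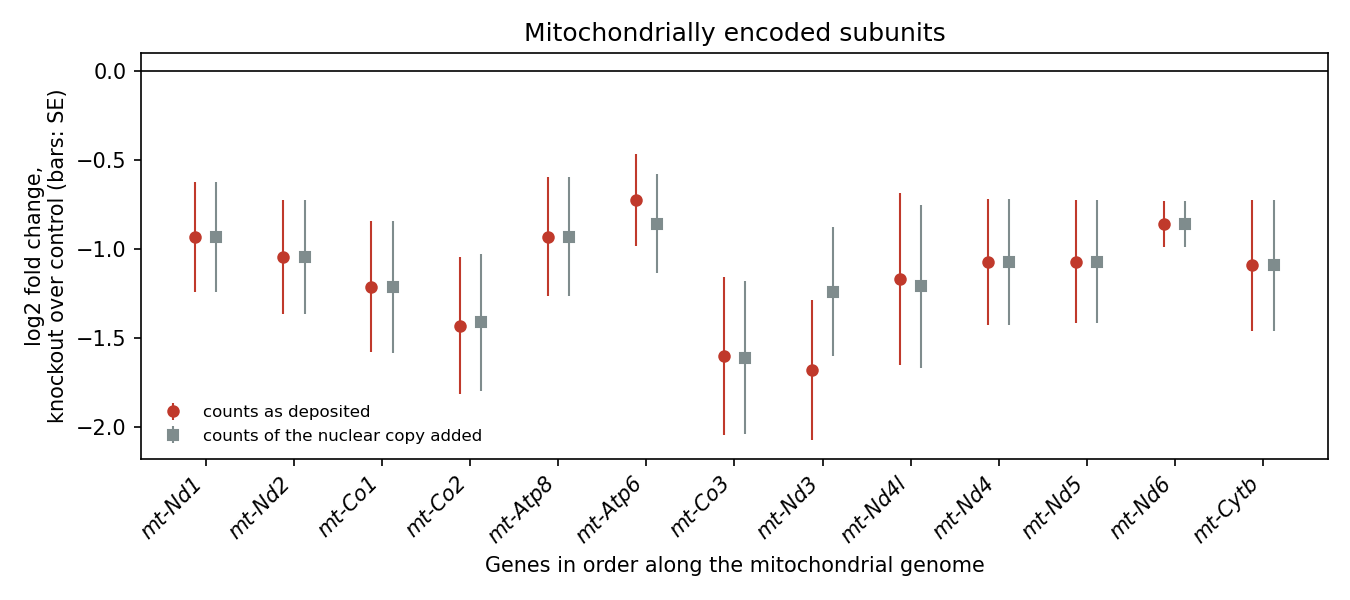
Log2 fold change, knockout over control, of the 13 mitochondrially encoded subunits (circles, with the SE as bars) in their order along the mitochondrial genome. Squares show the same fit after the counts of annotated nuclear copies were added; mt-Nd3 lies at -1.24 with the copy added and at -1.68 without it, and all 13 stayed below 0 in both fits.

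Reads of several mitochondrial genes cannot be assigned with certainty, because chromosome 1 carries near-identical copies of 7 of them in the GENCODE annotation. Over their aligned lengths the copies matched the mitochondrial transcripts at 98.8% to 100% of bases. Per length, mt-Co1 had 8766 ± 2294 RPKM (TMM-scaled CPM divided by the transcript length in kilobases) in the knockouts and 20273 ± 7058 RPKM in the controls (SD, n = 3 each). The genes mt-Co2, at 32.8 ± 15.4 RPKM in the knockouts and 88.5 ± 34.9 RPKM in the controls, and mt-Co3, at 29.7 ± 18.1 RPKM in the knockouts and 90.1 ± 35.7 RPKM in the controls, lay far below it although all 3 belong to complex IV. The copies of mt-Co2 and mt-Co3 are identical to them over 681 and 783 bases and held 49.2% and 53.1% of the combined counts. The copy of mt-Nd4l held 49.7% and that of mt-Nd3 67.2%, while those of mt-Co1 and mt-Nd4, which match only part of the gene, held 0.286% and 0.463%. The copy of mt-Atp6, identical to it over 678 bases, held 21.8%. Averaged over all libraries, mt-Atp6 had 358 RPKM, far below the 14450 RPKM of mt-Atp8, also of complex V. How reads that match several places were counted is not given in the sources used here, so the levels of mt-Co2, mt-Co3, mt-Nd3, mt-Nd4l and mt-Atp6 are uncertain.

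The start of mt-Nd3 and of its chromosome 1 copy shows how little separates such a pair. They are printed from GENCODE M21 transcripts over their first 33 bases, chrM:9459-9491 on the plus strand and chr1:24613087-24613119 on the minus strand of GRCm38, with the 1 base that differs in capitals (T3C, counted from 1 at the 5′ end of the mitochondrial sequence).
mt-Nd3: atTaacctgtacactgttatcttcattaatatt
Gm28438: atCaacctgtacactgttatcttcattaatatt
Over 345 aligned bases this was the 1 mismatch. With the copies' counts added, mt-Nd3 had a log2 fold change of -1.24 ± 0.36 (adjusted p = 0.032), and 11 of 13 members were called lower, mt-Atp6 being the one gained. Neighbours on the mitochondrial genome also overlap, mt-Atp8 and mt-Atp6 by 43 bases, mt-Nd5 and mt-Nd6 by 14, mt-Nd4l and mt-Nd4 by 7 and mt-Atp6 and mt-Co3 by 1. Whether the counting used strand is not given in the sources used here, so reads of mt-Nd6 and of the RNA opposite to it cannot be told apart.

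Summed over genes, the 2 genomes were lower together. The 82 nuclear members summed to 7528, 6279 and 8379.5 CPM in the knockouts, against 12031, 10153 and 12519.9 CPM in the controls, a log2 ratio of the group means of -0.65. The 13 mitochondrial members summed to 32817, 23888 and 41949.6 CPM in the knockouts, against 48178, 67347 and 96699 CPM in the controls, a log2 ratio of -1.11. In both sums every control exceeded every knockout. The largest part of the mitochondrial sum was mt-Co1, with 13923, 9824 and 16883 CPM in the knockouts and 20987, 30259.8 and 42719 CPM in the controls. Little of the counted sum came from mt-Co2, mt-Co3, mt-Nd3 and mt-Nd4l, none above the 102 CPM of mt-Co3 in control 3. For mt-Atp6 the highest value was 397 CPM, in control 3. Since the levels of these genes are uncertain, so are the mitochondrial sums, the part of mt-Co1 in them and their ratios to the nuclear sums. The mitochondrial sum was 4.36, 3.80 and 5.01 times the nuclear sum in the knockouts, against 4.004, 6.63 and 7.72 times in the controls. These ratios overlapped, since control 1 lay below 2 of the knockouts, and averaged 4.39 ± 0.60 in the knockouts and 6.12 ± 1.91 in the controls (SD, n = 3 each). By complex, the nuclear sums had log2 ratios of -0.67 for complex I, -0.45 for complex II, -0.80 for complex III, -0.71 for complex IV and -0.58 for complex V. Among the knockouts, knockout 2 was the lowest for 72 of 77 nuclear and 9 of 13 mitochondrial members, and knockout 3 the highest for 62 nuclear and 11 mitochondrial members. Among the controls, control 3 was the highest for 44 nuclear and 13 mitochondrial members. The lowest control was control 2 for 59 nuclear members and control 1 for all 13 mitochondrial ones.

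**Figure D4:**
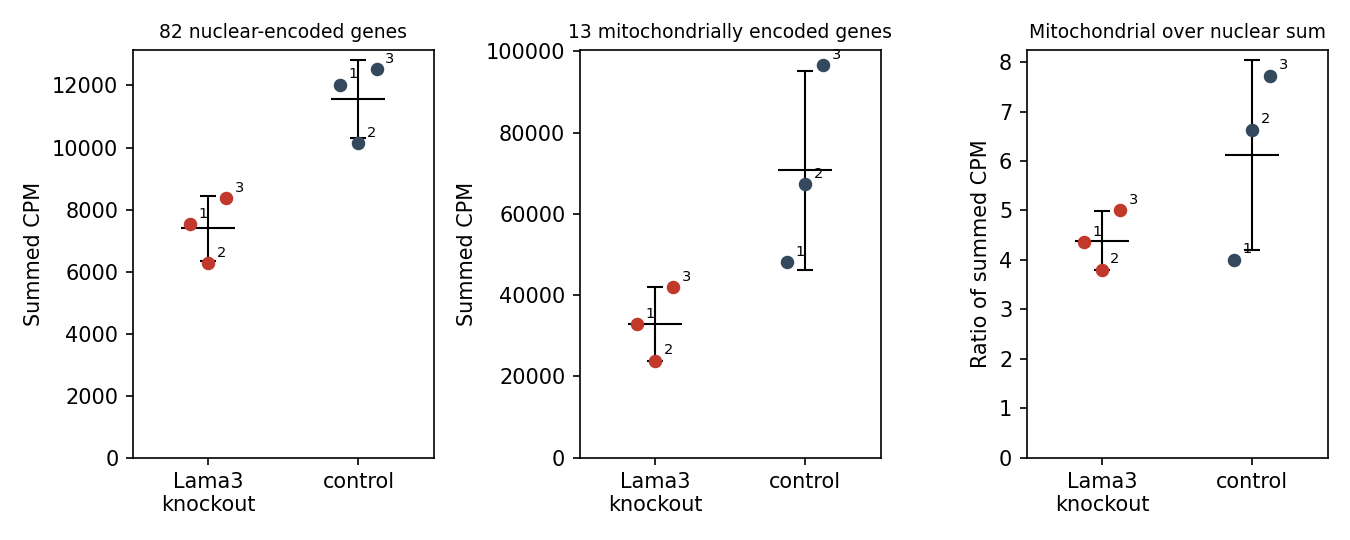
Summed CPM of the 82 nuclear-encoded and 13 mitochondrially encoded members, and the ratio of the mitochondrial to the nuclear sum, in 3 Lama3 knockout and 3 control libraries (points, numbered by replicate, with the mean and SD as bars). Both sums are lower in all knockouts than in all controls, and the ratios overlap between 3.80 and 5.01 in the knockouts and 4.004 and 7.72 in the controls.

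Most respiratory chain subunits are short proteins, and transcript length moved with the fold change across all genes. Over 15436 tested genes with a known length, the Spearman correlation between log2 fold change and the length of the principal transcript was 0.31, and over the 77 nuclear members it was 0.42. By complex it was 0.45 over the 35 nuclear members of complex I and 0.65 over the 16 of complex V, and it had the opposite sign, -0.36, over the 11 tested in complex IV. These are descriptions across genes of the same 6 libraries, and genes are not independent replicates. The 63 members that fell had a median length of 731 bases, and the 14 not called had a median of 1638 bases. Among transcripts of up to 1000 bases, 44 of 50 nuclear members fell (88%), and 32.1% of the 2085 other nuclear genes of this length did. Above 1000 and up to 2000 bases, 18 of 22 members fell (81.8%), against 24.4% of 3348 other genes. Above 2000 bases, 1 of 5 members fell (20%), against 13.6% of 9907 other genes. That member was Sdhc, and the other 4 were Sdha, Ndufs1, Ndufa10 and Atp5a1. The share of members called lower was thus above that of other genes in the first 2 length classes, and in the third it rested on 5 genes. The part of length in the fold changes of single members was not tested beyond the 2 fits with offsets.

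**Figure D5:**
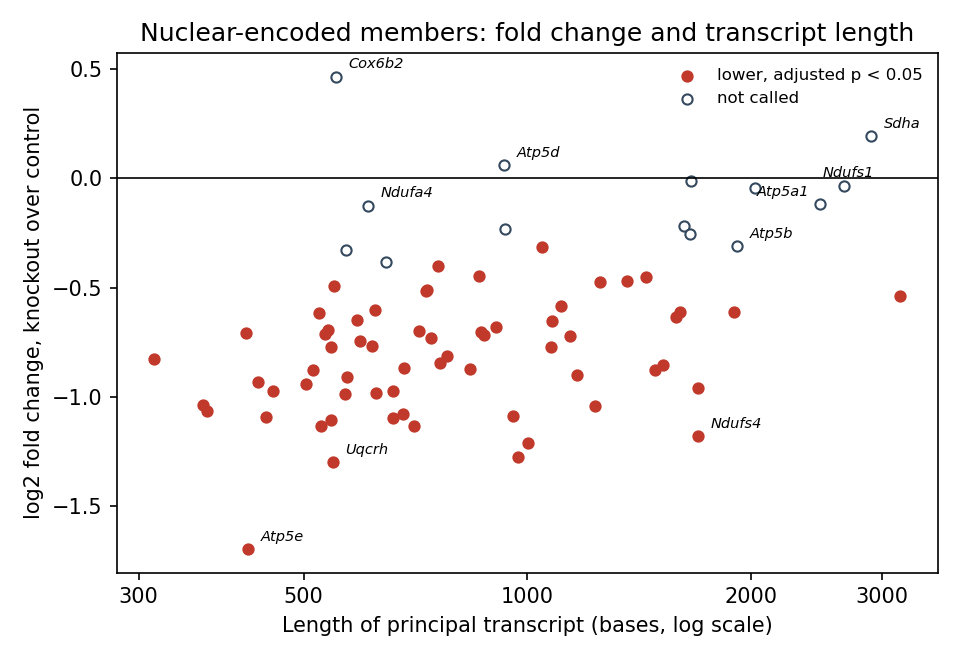
Log2 fold change, knockout over control, of the 77 nuclear members tested against the length of the principal transcript in bases (log scale). Filled points were called lower and open points were not called; 4 of the 5 transcripts longer than 2000 bases were not called.

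Other genes of the pathway were read from lists of assembly factors, carriers and regulators, 126 of them tested, of which 46 fell and 6 rose (2 rose without control 3). Among all genes tested, 18.8% were called lower and 17.4% higher, and these shares stand beside each list below. Of 14 complex I assembly factors, 6 fell and 0 rose, and the median log2 fold change was -0.40. Ndufaf6 had 2.03, 1.54 and 3.16 CPM in the knockouts, against 7.24, 5.48 and 9.001 CPM in the controls (-1.69 ± 0.32, adjusted p = 0.00727). Ndufaf2 was also lower (-1.12 ± 0.21, adjusted p = 0.00728), and neither gene overlapped between groups. Of 10 assembly factors for complexes II and III, 6 fell, among them Uqcc3 (-0.73 ± 0.14) and Sdhaf4 (-1.05 ± 0.22), and the Sdhaf4 call was lost with principal transcript offsets. Of 18 tested for complex IV, 7 fell, among them Cox14 (-0.88 ± 0.17) and Coa6 (-1.01 ± 0.21). Of 6 genes for assembly and regulation of the ATP synthase, 4 fell. Atpif1, the inhibitor that stops the synthase from running in reverse, had 110.0, 89.98 and 134 CPM in the knockouts, against 294, 231 and 292 CPM in the controls. Its groups were far apart (-1.29 ± 0.18, adjusted p = 0.00277), and Fmc1, an assembly factor of the F1 head, was also lower (-1.36 ± 0.24, adjusted p = 0.00576).

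Among 19 tested subunits and carriers outside the symbol rule, 9 fell and 0 rose. Cox4i1, the complex IV subunit that the rule left out, had 240.0, 221 and 299 CPM in the knockouts, against 554, 387 and 564 CPM in the controls, without overlap (-0.98 ± 0.20, adjusted p = 0.00915). Etfb, of the flavoprotein that feeds electrons from fatty acid oxidation, was lower (-1.20 ± 0.15, adjusted p = 0.00188), as were Coq6 of ubiquinone synthesis (-0.75 ± 0.11) and the adenine nucleotide carrier Slc25a4 (-0.72 ± 0.11). The cytochromes Cycs (-0.36 ± 0.17) and Cyc1 (-0.38 ± 0.15) did not pass the test (adjusted p = 0.122 and 0.0794). Of 20 genes of the tricarboxylic acid cycle and pyruvate entry, 5 fell (25%) and 1 rose, with a median of -0.16. That share lay near the 18.8% called lower among all genes. Both subunits of the mitochondrial pyruvate carrier fell: Mpc2 had 33.1, 34.7 and 39.4 CPM in the knockouts, against 123, 81.4 and 101 CPM in the controls (-1.51 ± 0.16, adjusted p = 0.00146). Mpc1 had 43.4, 39.2 and 40.04 CPM in the knockouts, against 101, 76.95 and 86.6 CPM in the controls (-1.11 ± 0.13, adjusted p = 0.00157), and neither gene overlapped between groups.

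Genes that maintain and transcribe the mitochondrial genome went both ways, with 7 of 15 lower (46.7%) and 2 higher. Among all genes, 18.8% were called lower and 17.4% higher. Tfam, which packages mitochondrial DNA and starts its transcription, had 29.3, 26.1 and 27.99 CPM in the knockouts, against 46.3, 40.6 and 44.5 CPM in the controls (-0.66 ± 0.11, adjusted p = 0.00459). Tefm, the elongation factor (-1.45 ± 0.24), and Fastkd2, a mitochondrial RNA-binding protein (-0.84 ± 0.14), were also lower. Polrmt, the polymerase itself, had 33.4, 36.6 and 32.96 CPM in the knockouts, against 22.05, 26.1 and 23.3 CPM in the controls, without overlap (0.53 ± 0.12, adjusted p = 0.0118). That rise was not called with either set of offsets or without control 3. Of the mitochondrial ribosomal RNAs, mt-Rnr2 was lower (-1.002 ± 0.29, adjusted p = 0.0284) and mt-Rnr1 did not pass the test (-0.59 ± 0.30, adjusted p = 0.155). The mt-Rnr2 call was lost with both sets of offsets and without knockout 1, knockout 2, control 2 or control 3.

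Of 12 tested regulators of mitochondrial biogenesis, 0 fell and 1 rose. Pprc1, a coactivator related to PGC-1, had 68.5, 62.7 and 68.9 CPM in the knockouts, against 36.9, 40.1 and 38.9 CPM in the controls (0.79 ± 0.10, adjusted p = 0.0021), and the groups stood apart. Nrf1 (0.10 ± 0.10), Esrra (-0.11 ± 0.16) and Ppargc1a (0.25 ± 0.27), regulators of respiratory chain promoters, did not pass the test. Of 10 genes of mitochondrial dynamics and turnover, 1 fell and 2 rose, beside 18.8% lower and 17.4% higher among all genes. Fundc1, a mitophagy receptor, was lower (-0.81 ± 0.16) and Mfn1, a fusion protein, was higher (0.55 ± 0.11, adjusted p = 0.00885). Except for Sdhaf4, Polrmt and mt-Rnr2, the called genes of these lists named here held their calls in all 18 alternatives.

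Since many nuclear members fell together, their promoters are shown for motifs of factors known to act on respiratory chain genes. RefSeq windows of 300 bases (250 before to 50 after the annotated start, GRCm38.p6) were found by symbol for 66 of the 82 nuclear members, as 71 windows. Both strands were searched for the letters of each motif. The full palindromic NRF1 motif stood in 7.04% of the members' windows and 0.971% of all 32851 windows. A shorter sequence, TGCGCA (named the NRF1 core here), can overlap the full motif but is not contained in it. This core stood in 25.4% of the members' windows and 7.76% of all. The ETS motif CCGGAAG stood in 22.5% of the members' windows and 8.86% of all, the YY1 motif AAGATGGCG in 9.86% of the members' and 1.4% of all, and the ERR motif TCAAGGTCA in 2.82% of the members' and 0.423% of all. Among the 63 of these genes that were tested, ETS letters were found in 15 of 53 that fell and 1 of 10 not called, and the NRF1 core in 14 of 53 that fell and 3 of 10 not called. The full NRF1 motif was found in 3 of 53 that fell and 2 of 10 not called. For YY1 these counts were 7 of 53 and 0 of 10, and for ERR 2 of 53 and 0 of 10.

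The stretches below hold a match in 5 members that fell, with the matched letters in capitals. They show matches outside annotated exons, from the called members with the smallest p for each motif (for the NRF1 core, the gene with the second smallest, since Atp5l is shown for its ETS letters). Ndufa11 (NRF1) is chr17:56717686-56717751 on the plus strand, Ndufb4 (NRF1 core) chr16:37654515-37654600, Atp5l (ETS) chr9:44920908-44920992, Sdhd (ETS) chr9:50603850-50603909 and Atp5g3 (ERR) chr2:73911330-73911418, these 4 on the minus strand.
Ndufa11: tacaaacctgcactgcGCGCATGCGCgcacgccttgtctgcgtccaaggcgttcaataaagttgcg
Ndufb4: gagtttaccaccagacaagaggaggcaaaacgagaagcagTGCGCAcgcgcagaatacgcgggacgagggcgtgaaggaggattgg
Atp5l: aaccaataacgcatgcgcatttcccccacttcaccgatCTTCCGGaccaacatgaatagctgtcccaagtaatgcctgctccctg
Sdhd: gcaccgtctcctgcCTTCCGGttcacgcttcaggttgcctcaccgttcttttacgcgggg
Atp5g3: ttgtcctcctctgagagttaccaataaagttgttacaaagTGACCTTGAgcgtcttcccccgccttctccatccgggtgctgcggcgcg
Counted from the annotated start, the matches begin at -60 in Ndufa11, -192 in Ndufb4, -212 in Atp5l, -46 in Sdhd and -52 in Atp5g3. A match of letters is a description and not evidence of binding.

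Markers of other cell types and of keratinocyte states moved with the groups as well, though not in every list. The counts below stand beside 18.8% lower and 17.4% higher among all genes tested. Basal keratinocyte markers summed to 15905 to 21638 CPM in the knockouts and 16818 to 23207 CPM in the controls, with 1 of 7 higher and 1 lower. Suprabasal markers summed to 25940 to 41475 CPM in the knockouts, against 10244 to 14086 CPM in the controls, and 6 of 7 rose. Hair shaft and sheath markers (8 of 8 lower, 16.0 to 22.4 CPM in the knockouts against 93.5 to 323 CPM in the controls) and melanocyte markers (5 of 5 lower, 11.0 to 21.3 CPM in the knockouts against 50.2 to 179 CPM in the controls) were lower in all knockouts than in any control. T cell markers (6 of 6 lower) summed to 60.8 to 68.9 CPM in the knockouts and 132 to 265 CPM in the controls, and sebaceous markers (5 of 7 lower) to 500.4 to 917 CPM in the knockouts and 1255 to 1505 CPM in the controls. Of the neutrophil list, Cxcr2, S100a8 and S100a9 were tested and all 3 were higher. Csf3r was below the filter, and Ly6g and Retnlg had 0 counts in all 6 libraries. The list summed to 154 to 1512 CPM in the knockouts and 7.71 to 35.9 CPM in the controls. Whether these counts came from neutrophils was not tested. Of the skeletal muscle list, 5 of 10 genes were tested and 0 were called, with sums of 4.398 to 12.4 CPM in the knockouts and 7.15 to 10.1 CPM in the controls. White fat markers were below the filter in all 5 cases (0.314 to 0.507 CPM summed in the knockouts and 0.708 to 1.16 CPM in the controls), and of 4 brown fat genes tested 2 were lower, with Ucp1 below the filter (37.8 to 70.1 CPM in the knockouts and 84.8 to 106 CPM in the controls). Erythroid genes (3 of 4 lower) summed to 1.71 to 3.002 CPM in the knockouts and 12.2 to 20.9 CPM in the controls, and fibroblast genes (2 of 6 lower) to 35.4 to 46.1 CPM in the knockouts and 28.3 to 89.5 CPM in the controls. Langerhans cell and macrophage genes (2 higher and 1 lower of 7) summed to 370.5 to 515 CPM in the knockouts and 353 to 989 CPM in the controls, and 0 of 2 endothelial genes tested were called (1.48 to 2.09 CPM in the knockouts and 3.002 to 4.402 CPM in the controls). The part of these cell types in the levels of respiratory chain transcripts was not tested.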

How the data were processed

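The authors deposited whole-number counts per gene for 6 libraries. Cuffdiff 1.3.0, TopHat 1.3.3 and featureCounts 1.4.6 and the build GRCm38 are listed in the submitters' processing notes, without their roles. The sources used here do not give the annotation release, the strand setting or the handling of reads with several matches. Differences were tested with edgeR 4.0.16 under R 4.3.3 (quasi-likelihood, robust, TMM factors, filterByExpr by group, group as the one term), and p-values were adjusted by Benjamini and Hochberg's method across the 15513 genes that passed the filter, with a threshold of 0.05. The script was tested on simulated data. Symbols, positions and lengths came from GENCODE M21 (98.0% of identifiers matched), promoters from RefSeq GRCm38.p6. CPM are TMM-scaled; RPKM use the principal transcript. The titles number 3 libraries per group, and these were taken as 3 separate mice. Total counts set the precision of low values.

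The members and lists were chosen with earlier results of these data known. Named were all mitochondrial members, complex II and the paralog sets. In each complex these were joined by the 4 lowest p per direction among called members and the 2 highest RPKM. In each list of mitochondrial genes, up to 2 called genes with the smallest p were named. Of the marker lists, this rule was used only for the neutrophil list. Genes named outside this rule (Ndufa10, Ndufa11, Ndufb4, Ndufs1, Ndufv1, Ndufv2, Uqcrc1, Cox5a, Cox7c, Atp5a1, Atp5d, Atp5h, Atp5j2, Cox4i1, Cycs, Cyc1, Slc25a4, Tfam, Polrmt, mt-Rnr1, Nrf1, Esrra, Ppargc1a, Gm28438, S100a8, Csf3r, Ly6g, Retnlg, Ucp1, Xist and Ddx3y) were picked with their values already in view. Values of 1 member are not reported here. Alternatives were DESeq2 1.42.0, limma-voom (limma 3.58.1), other scaling factors, other filters on low counts (including 1 CPM in 3 libraries), sex, a replicate block, length and GC offsets (covering 99.5% of tested genes), mitochondrial genes left out of the scaling, and each library left out. The principal transcript offsets and the adding of nuclear copies were chosen after seeing the data.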

Additional observations from a re-analysis of the deposited data

How the results depend on the processing

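With principal transcript length and GC offsets the calls lower were 31 nuclear, 0 mitochondrial, 15 complex I, 3 complex III, 1 complex IV and 8 complex V, and 1 member was higher; with exon offsets they were 0 mitochondrial, 20 complex I, 3 complex III and 4 complex IV. With sex as a covariate, 56 nuclear and 5 mitochondrial members were called lower, and 2696 of all genes. Upper-quartile factors called 3988 genes lower and 1756 higher, against 2919 lower and 2693 higher with TMM factors. Leaving out 1 library gave 34 to 61 nuclear, 1 to 13 mitochondrial, 17 to 30 complex I, 3 to 7 complex III, 1 to 8 complex IV and 7 to 13 complex V calls, 1586 to 2754 genes higher and 1714 to 2771 lower over all genes (both lowest without control 3), and 2 to 6 genes higher in the mitochondrial lists. The cause of these moves was not tested. The 3 calls in complex II held in all 18 alternatives. The summed nuclear and mitochondrial levels kept their direction in the 9 alternatives run for them, which only rescaled libraries or left 1 out. Every control sum exceeded every knockout sum, so leaving out a library could not by itself turn that direction. The length and GC offsets and the sex covariate were not applied to the sums. The log2 fold changes of these genes turned sign: Ndufa10 (-0.115 to 0.0319 without 1 library), Ndufs1 (0.00677 with no filter, 0.0598 with principal offsets, -0.0755 to 0.0262 without 1 library), Ndufv1 (0.0295 with no filter, 0.0189 with DESeq2, 0.0239 with principal offsets, -0.0943 to 0.078 without 1 library), Cox5a (0.0722 with principal offsets), Ndufa4 (0.424 with exon offsets, 0.496 with principal offsets, -0.363 to 0.0395 without 1 library), Atp5d (-0.0862 with upper-quartile factors), mt-Nd6 (0.0531 with exon offsets, 0.0791 with principal offsets), mt-Atp6 (0.0607 with exon offsets, 0.0719 with principal offsets), mt-Atp8 (0.0522 with exon offsets, 0.11 with principal offsets), Esrra (-0.237 to 0.0342 without 1 library), Nrf1 (-0.0477 with upper-quartile factors) and mt-Rnr1 (0.122 with exon offsets, 0.126 with principal offsets). None of these genes was called where its sign had turned. The edgeR fit used for the reported values called only mt-Nd6 of them, and some alternatives also called Cox5a, mt-Atp6, mt-Atp8 and mt-Rnr1 lower. Libraries numbered 1 and those numbered 2 did not deviate together (correlations of -0.11 and -0.10), while those numbered 3 did (0.42). Knockouts 1 and 2 correlated best with another number, and replicate numbers were not taken as pairs. With a replicate block 63 nuclear and 11 mitochondrial members, and 2701 of all genes, were lower and 2422 genes higher. The 5 untested isoforms had too few counts to test, and Cox7b2 and Cox8c had 0 counts in every library. Whether depth or absence from these cells set this was not tested.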
